A study of Mus musculus with 6 samples.

Results

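The genes described here are 10 that mark macrophages, the phagocytic cells of the monocyte lineage: Csf1r, Lyz2, Tyrobp, Laptm5, Adgre1, Cd68, Spi1, Cd14, Ptprc and Trem2. They were chosen by symbol, with earlier results of these data known, and all 10 were among the 11896 named genes of the deposited table. The libraries were made from total RNA of mouse BMSCs, primary bone marrow stromal cells, the marrow preparation that holds the precursors of bone and fat cells. In all, 3 libraries were wild type (WT) and 3 carried Pth1rΔNLS, an allele of the parathyroid hormone receptor gene named for its missing nuclear localisation signal; the series' design text calls these mice heterozygotes. The sources used here do not give the age of the mice, how the stromal cells were purified, whether they were cultured or whether each library is a separate animal. The p-values therefore measure the spread among these 6 samples alone, and that spread may be technical. The question put to the 10 genes was whether they rose by 1 shared factor in the Pth1rΔNLS libraries.

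Macrophages depend on the growth factors CSF1 and IL-34, which both signal through the receptor CSF1R. The transcription factor PU.1, encoded by Spi1, is required to form the lineage and binds near many of its genes, among them Csf1r itself. Surface receptors such as TREM2 carry no signalling motif of their own and pass their signal through the adaptor TYROBP, also called DAP12. In bone marrow, macrophages engulf nuclei shed by maturing red cells, and their precursors also give rise to the osteoclasts that resorb bone.

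DNA just before the start site, trimmed to the part that precedes the gene in both GENCODE and RefSeq, is shown because PU.1 is itself a member and prefers purine-rich sequence around GGAA. Of the 10 members 5 matched the RefSeq promoter table (build GRCm38.p6, the same assembly as mm10) by symbol, and the 3 with at least 150 bases left after trimming are printed. Each is 5′ to 3′ on the gene's strand, and capitals mark a match on either strand to GGAAGT or GAGGAA, which overlap each other in a full PU.1 consensus.
Lyz2, chr10:117282322-117282522, minus strand: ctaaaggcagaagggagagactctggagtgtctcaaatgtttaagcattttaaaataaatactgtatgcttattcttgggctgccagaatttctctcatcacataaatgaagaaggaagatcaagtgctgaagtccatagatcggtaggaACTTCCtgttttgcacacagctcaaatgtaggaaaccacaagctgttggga
Cd68, chr11:69666171-69666420, minus strand: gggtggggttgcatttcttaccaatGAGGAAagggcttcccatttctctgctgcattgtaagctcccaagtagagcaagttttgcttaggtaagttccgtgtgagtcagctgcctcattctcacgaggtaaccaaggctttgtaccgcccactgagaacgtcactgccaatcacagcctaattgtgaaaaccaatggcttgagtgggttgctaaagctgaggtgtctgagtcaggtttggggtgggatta
Trem2, chr17:48346151-48346400, plus strand: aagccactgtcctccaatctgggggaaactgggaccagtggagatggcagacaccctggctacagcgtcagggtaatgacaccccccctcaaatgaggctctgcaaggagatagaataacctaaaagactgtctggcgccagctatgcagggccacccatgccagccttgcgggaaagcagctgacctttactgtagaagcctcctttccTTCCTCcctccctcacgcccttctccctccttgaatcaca
Each of the 3 held 1 match: GGAAGT on the opposite strand in Lyz2, GAGGAA on the gene's strand in Cd68 and GAGGAA on the opposite strand in Trem2. Of all 32851 RefSeq windows of 250 bases before a start, 36.7% held at least 1 of these motifs, 19.7% GGAAGT and 23.2% GAGGAA, so a match is common and marks letters only.

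Values are FPKM, the mapped fragments of a transcript scaled to its length and to the library's total, summed over the listed transcripts of each gene. Sequencing depth is unknown, and the libraries held 11810 to 11834 genes above 0 FPKM. The share of FPKM from mitochondrially encoded transcripts was 6.47, 12.8 and 9.33% in WT 1, 2 and 3 and 18.2, 12.8 and 10.6% in Pth1rΔNLS 1, 2 and 3. In a bulk sample, fewer cells of a type and less RNA per cell cannot be told apart.

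Macrophage genes were abundant in this stromal preparation and stood higher in Pth1rΔNLS. Ranked by mean FPKM, Lyz2 was number 11 of all named genes, and the lowest member, Ptprc, number 1267. In WT the order of levels was Lyz2, Cd68, Tyrobp, Adgre1, Csf1r, Laptm5, Trem2, Cd14, Spi1 and Ptprc, and of these neighbours Csf1r overlapped with Laptm5 and Laptm5 with Trem2 between libraries. In Pth1rΔNLS the order was the same except that Laptm5 stood above Csf1r, with no overlap between neighbours. All 10 members passed the expression filter (mean of at least 1 FPKM) and had a higher mean in Pth1rΔNLS. Of these, 7 passed the test (limma on log2(FPKM + 1), Benjamini-Hochberg adjusted p under 0.05 over 10905 genes), 0 fell and Cd68, Ptprc and Trem2 did not pass, where 6.94% of all tested genes passed as higher and 10.4% as lower. Because the members were chosen with earlier results of these data known, this contrast with all genes is not independent support for a rise. The median log2 fold change was 0.49 over the members and -0.01 over all tested genes. For 8 members every Pth1rΔNLS library lay above every WT library, a pattern that 16.6% of all tested genes had, and for those 8 p was 0.1 by a two-sided exact permutation test, the smallest that 20 assignments allow. The number of members past the test was 4 without WT 3, 4 without Pth1rΔNLS 2 and 4 without Pth1rΔNLS 3. Calls fell across all tested genes too: 398, 351 and 365 passed as higher in those fits, against 757 in the main fit.

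**Figure D1:**
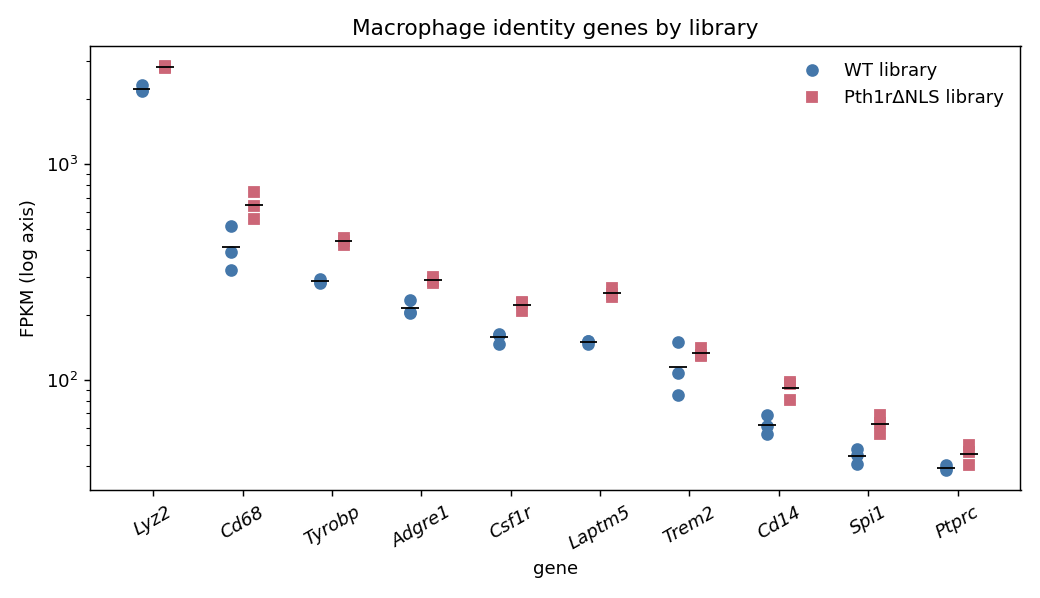
FPKM (log axis) of the 10 macrophage identity genes, ordered by WT mean, with 1 point per library (circles WT, squares Pth1rΔNLS, 3 each) and bars at the group means. The groups are apart for 8 genes and overlap for Trem2 and Ptprc.

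Csf1r, the receptor tyrosine kinase through which macrophages survive and divide (mm10, chromosome 18, 61100598 to 61132149), read 162, 147 and 164 FPKM in WT 1, 2 and 3 and 209.9, 227 and 229.6 FPKM in Pth1rΔNLS 1, 2 and 3. All Pth1rΔNLS libraries were above all WT libraries, and the gap between the groups was wider than the spread within either. Csf1r rose, with a log2 fold change of 0.49 (SE 0.07, limma adjusted p = 0.00667).

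Spi1, the gene of PU.1 (chromosome 2, 91082390 to 91115756), stood at 44.9, 40.9 and 47.8 FPKM in WT and reached 56.3, 68.7 and 63.5 FPKM in Pth1rΔNLS. The groups did not overlap, with Pth1rΔNLS 1 nearest to WT. Spi1 rose by a log2 fold change of 0.48 (SE 0.10, limma adjusted p = 0.0197). Spi1 no longer passed when WT 1 (adjusted p = 0.0574), Pth1rΔNLS 2 (0.0661) or Pth1rΔNLS 3 (0.0682) was left out.

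Tyrobp, the adaptor whose cytoplasmic motif recruits the kinase SYK (chromosome 7, 30413760 to 30417585), read 284, 293 and 281 FPKM in WT and 453, 442 and 421 FPKM in Pth1rΔNLS. The groups were far apart, and libraries of each genotype lay close together. Tyrobp rose by 0.61 on the log2 scale (SE 0.06, limma adjusted p = 0.00162).

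Trem2, a lipid-sensing receptor that signals through TYROBP (chromosome 17, 48346401 to 48354147), stood at 150.7, 85.2 and 108 FPKM in WT and at 129, 130.1 and 141 FPKM in Pth1rΔNLS. WT 1 was the highest of all 6 libraries and WT 2 the lowest, so the Pth1rΔNLS values lay within the WT range. Its difference was 0.25 on the log2 scale (SE 0.20, adjusted p = 0.444 by limma). The WT coefficient of variation was 29% for Trem2 and 2.18% for Tyrobp.

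Laptm5, whose protein sits in the lysosomal membrane of blood cells and steers receptors to degradation (chromosome 4, 130913125 to 130936141), had the highest fold of the members. Its FPKM were 147, 152 and 152 in WT and 265, 251 and 241 in Pth1rΔNLS, with WT libraries within a few FPKM of each other and all Pth1rΔNLS libraries far above. Its difference was 0.74 on the log2 scale (SE 0.06, adjusted p = 0.000866 by limma), higher than for 97.9% of all tested genes.

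Ptprc encodes CD45, the phosphatase found on all nucleated blood cells (chromosome 1, 138062861 to 138175708). It read 39.1, 38.3 and 40.4 FPKM in WT and 40.2, 49.8 and 46.4 FPKM in Pth1rΔNLS. Pth1rΔNLS 1 lay inside the WT range, and the other two Pth1rΔNLS libraries above it. Its difference was 0.20 on the log2 scale (SE 0.09, adjusted p = 0.191 by limma), the smallest of the members.

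Lyz2, the macrophage lysozyme that cleaves bacterial cell walls (chromosome 10, 117277331 to 117282321), read 2200.2, 2176 and 2317 FPKM in WT and 2781, 2845 and 2807 FPKM in Pth1rΔNLS. The groups did not overlap and libraries within each agreed closely, but the step between them was small. Its difference was 0.33 on the log2 scale (SE 0.08, adjusted p = 0.0285 by limma). This call was lost when any 1 library was left out (adjusted p from 0.0672 to 0.105) and under quantile normalization (log2 fold change 0.08, adjusted p = 0.851). Lyz2 has a near copy, Lyz1, and 15.4% of the 50-base stretches of its transcript also occur in another gene, so reads may be split; Lyz1 stood at 2.14 to 6.59 FPKM in WT and 4.64 to 6.77 FPKM in Pth1rΔNLS. For the other 9 members no 50-base stretch of the leading transcript occurred in another gene.

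Cd68, a heavily glycosylated protein of macrophage lysosomes (chromosome 11, 69664213 to 69666153), read 323, 518 and 392 FPKM in WT and 742, 642 and 557 FPKM in Pth1rΔNLS. The groups did not overlap, but libraries within each were widely spread. Its difference was 0.67 on the log2 scale (SE 0.19, adjusted p = 0.0580 by limma), larger than that of Tyrobp but with a wider SE. Cd68 passed without WT 2 (adjusted p = 0.0221), with array weights (0.0169) and without mitochondrially encoded transcripts (0.04996).

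Adgre1, which encodes F4/80, the adhesion receptor by which mouse macrophages are commonly stained (chromosome 17, 57358691 to 57483527), stood at 207, 234 and 205 FPKM in WT and at 299, 287 and 282 FPKM in Pth1rΔNLS. WT 2 was the nearest WT library to the Pth1rΔNLS group, without overlap. Adgre1 rose by 0.43 on the log2 scale (SE 0.07, limma adjusted p = 0.0121). It no longer passed when WT 3 was left out (adjusted p = 0.0539).

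Cd14, the co-receptor that hands lipopolysaccharide to Toll-like receptor 4 (chromosome 18, 36725067 to 36726798), read 68.5, 56.5 and 61.1 FPKM in WT and 80.6, 95.9 and 98.2 FPKM in Pth1rΔNLS. The groups did not overlap, with Pth1rΔNLS 1 again the nearest to WT. Cd14 rose by 0.55 on the log2 scale (SE 0.11, limma adjusted p = 0.0173). Leaving out WT 3 (adjusted p = 0.0606), Pth1rΔNLS 2 (0.0654) or Pth1rΔNLS 3 (0.0623) ended that call.

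To ask for a shared factor, folds were taken as ratios of FPKM with no pseudocount, a scale on which the same 7 members and 6.88% of all tested genes passed as higher. The geometric mean over the 10 members was 168, 163 and 167 FPKM in WT 1, 2 and 3 and 227, 237 and 230.2 FPKM in Pth1rΔNLS 1, 2 and 3. The 3 WT libraries and the 3 Pth1rΔNLS libraries were each nearly level, with a step of 1.396-fold between them, while the median of all tested genes was -0.01 on the log2 scale. Around that mean the single folds spread from 1.154 for Ptprc (95% interval 0.988 to 1.35) and 1.19 for Trem2 (0.859 to 1.66) to 1.59 for Cd68 (1.16 to 2.19) and 1.68 for Laptm5 (1.51 to 1.87). Between them lay Lyz2 at 1.26 (1.12 to 1.41), Adgre1 at 1.35 (1.19 to 1.52), Spi1 at 1.41 (1.19 to 1.67), Csf1r at 1.41 (1.25 to 1.59), Cd14 at 1.47 (1.23 to 1.77) and Tyrobp at 1.53 (1.38 to 1.697). The interval of Laptm5 lay wholly above the geometric mean, that of Ptprc wholly below it, and the other 8 intervals held it. That mean comes from the same libraries and includes every member, so these intervals do not test a departure from it. The SD between members' log2 folds was 0.18, and the median within-group SD of single members between libraries was 0.10. These cannot be compared directly, because a fold is a difference of means of 3 libraries. The SE of the log2 folds ran from 0.06 for Tyrobp to 0.20 for Trem2.

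**Figure D2:**
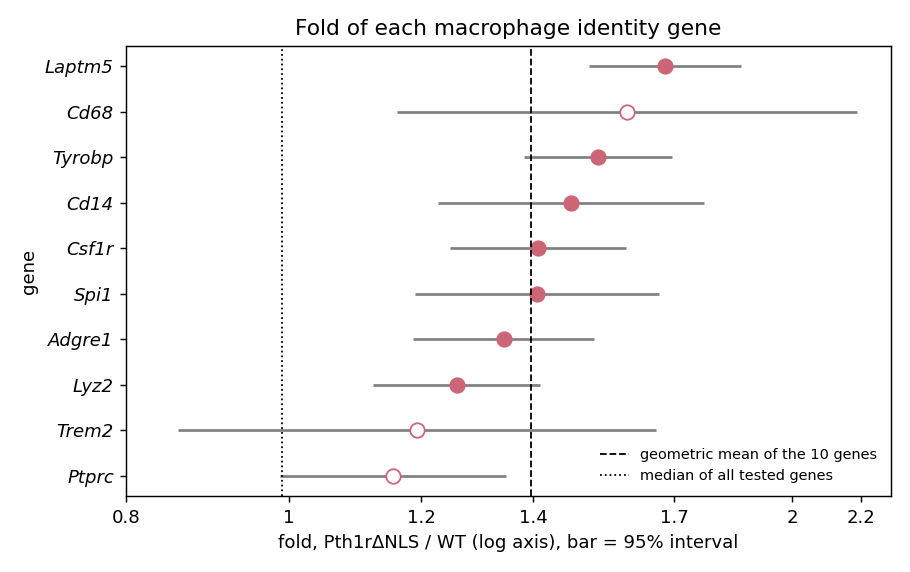
Fold of each gene, Pth1rΔNLS over WT, on FPKM without a pseudocount (log axis), with the limma 95% interval; filled points passed the main test on log2(FPKM + 1). The dashed line is the geometric mean fold of the 10 genes, 1.396, and the dotted line the median of all tested genes; Laptm5 and Ptprc have intervals that miss the dashed line.

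A ratio of 2 members in the same library removes any factor they share, so each member was divided by Csf1r and the genotypes compared again across 10834 genes. Of the other 9 members only Ptprc passed this test, and it moved less than Csf1r: its ratio to Csf1r was 0.242, 0.260 and 0.246 in WT and 0.192, 0.219 and 0.202 in Pth1rΔNLS, a 0.819-fold difference (95% interval 0.714 to 0.938, limma adjusted p = 0.0237). The groups did not overlap. With Ptprc as the reference instead, Csf1r did not pass (adjusted p = 0.0821). The Ptprc call was lost without WT 3, Pth1rΔNLS 1 or Pth1rΔNLS 3, without both WT 1 and Pth1rΔNLS 1, with the replicate block, with the mitochondrial share as a covariate and on the highest transcript of each gene. Laptm5 moved more than Csf1r by 1.19-fold (1.01 to 1.401, adjusted p = 0.0648), short of the threshold; it passed beside Ptprc when WT 2 was left out and with array weights, where 59.7% of all tested genes differed from Csf1r, and in place of Ptprc on the highest transcript of each gene. Spi1 kept the pace of Csf1r most closely: its ratio to Csf1r was 0.278, 0.278 and 0.292 in WT and 0.268, 0.302 and 0.276 in Pth1rΔNLS, a 0.999-fold difference (0.878 to 1.14). The ratio of Lyz2 to Csf1r was 13.6, 14.8 and 14.1 in WT and 13.3, 12.5 and 12.2 in Pth1rΔNLS, with no overlap. That 0.894-fold difference (0.769 to 1.04) did not pass (limma adjusted p = 0.168). For the other members the fold relative to Csf1r ran from 0.847 for Trem2 (0.635 to 1.13) to 1.13 for Cd68 (0.768 to 1.66), and these wide intervals leave room for sizeable differences. In the same fit 56.1% of all tested genes differed from Csf1r, 55.2% moving lower and 0.941% higher, and the median gene lay -0.51 below it on the log2 scale.

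**Figure D3:**
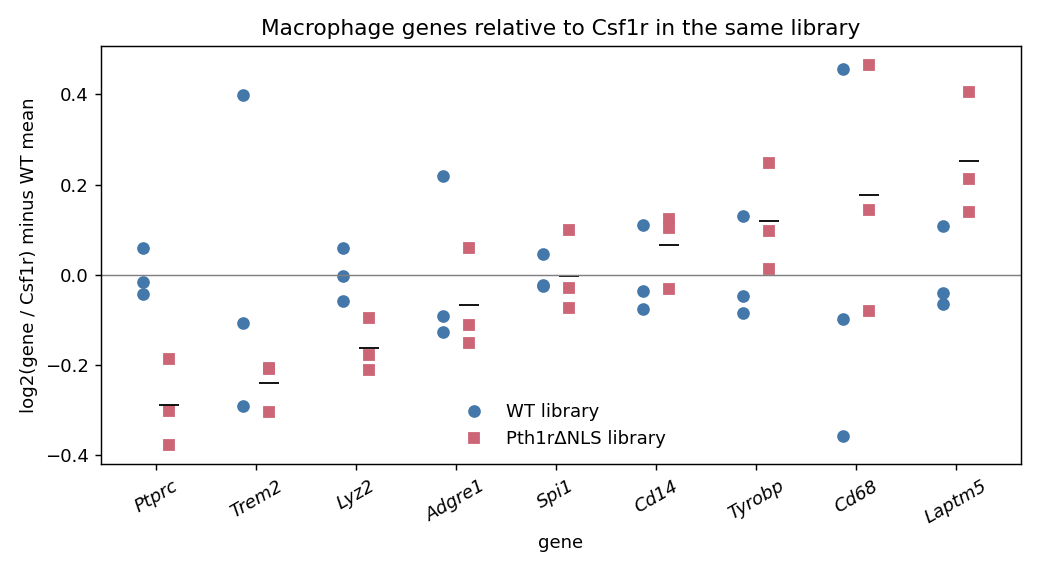
log2 ratio of each gene to Csf1r in the same library, less the WT mean, with 1 point per library (circles WT, squares Pth1rΔNLS) and bars at the Pth1rΔNLS means. Spi1 stays near 0, Ptprc and Lyz2 lie below with no overlap and Laptm5 above, also with no overlap.

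With each member in turn as the reference, 45 pairs were compared, and a pair was counted as differing if it passed in both directions, each over all genes tested. By that count 4 pairs differed: Laptm5 rose 1.33-fold more than Lyz2 (limma adjusted p = 0.00658), Ptprc 0.687-fold as much as Laptm5 (0.00573), Adgre1 0.801-fold as much as Laptm5 (0.00933) and Tyrobp 1.22-fold more than Lyz2 (0.0266). Laptm5 was in 3 of these pairs and Lyz2 in 2, while Csf1r, Cd68, Spi1, Cd14 and Trem2 were in none. Without each library in turn, Laptm5 against Lyz2 passed in all 6 cases. Adgre1 against Laptm5 did not pass without WT 1, Pth1rΔNLS 1 or Pth1rΔNLS 2, Ptprc against Laptm5 did not without any 1 of the WT libraries or Pth1rΔNLS 3, and Tyrobp against Lyz2 passed only without WT 2. Of all tested genes 65.2% differed from Tyrobp, 74.9% from Laptm5 and 37.2% from Lyz2, so the adjustment over all genes is lenient in these fits. By this test the fold of Laptm5 was not that of Lyz2, while the pairs outside these 4 did not pass in both directions, which does not show that they moved alike.

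Within each genotype, members were ordered differently across libraries. WT 2 and Pth1rΔNLS 1, the libraries with the highest mitochondrial share of their genotype, had the lowest level of their genotype for 6 members, Csf1r, Lyz2, Spi1, Cd14, Ptprc and Trem2, and the highest for 3, Tyrobp, Adgre1 and Cd68. Laptm5 was highest in Pth1rΔNLS 1 and in the middle in WT 2. For Cd68 alone among the members, the full order of libraries followed the mitochondrial share in both genotypes. With the mitochondrial share as a covariate, an alternative added after seeing the data, the log2 fold change of Cd68 was 0.35 in place of 0.67 (adjusted p = 0.0850) and that of Trem2 0.51 in place of 0.25 (0.135), while the same 7 members passed, Csf1r, Lyz2, Tyrobp, Laptm5, Adgre1, Spi1 and Cd14. In that fit 819 of all 10905 tested genes passed as higher and 889 as lower. Lyz2 was then the 1 member whose fold differed from that of Csf1r, where 5783 of 10834 genes differed.

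**Figure D4:**
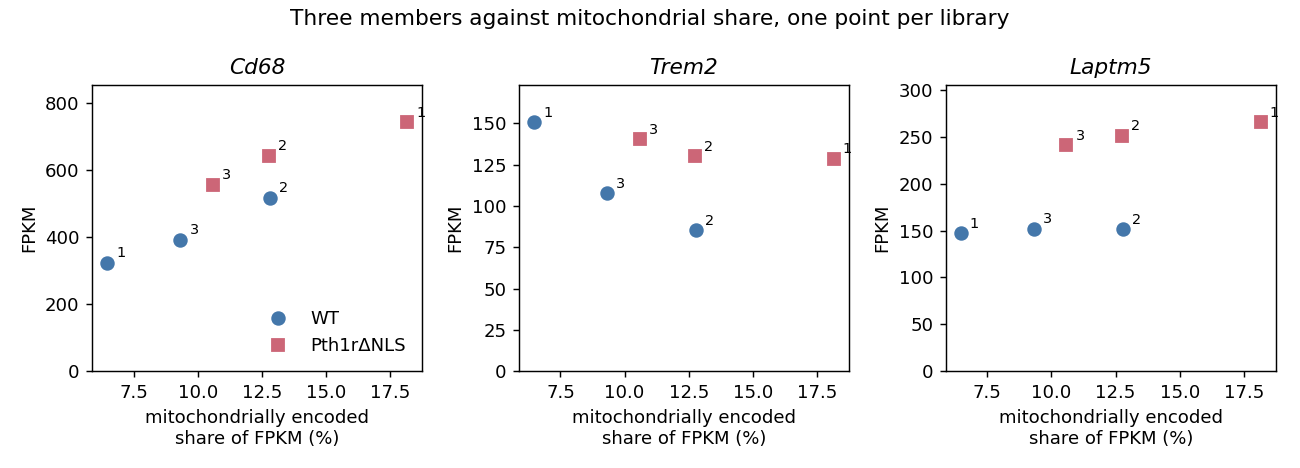
FPKM of Cd68, Trem2 and Laptm5 against the percent of FPKM from mitochondrially encoded transcripts, with 1 point per library labelled by its replicate number (circles WT, squares Pth1rΔNLS). Within each genotype Cd68 is ordered as the mitochondrial share, Trem2 in the opposite order, and Laptm5 differs little within genotypes.

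On group means, the highest transcript of each member held more of its FPKM than all others together. The Csf1r transcript of 4701 bases carried 97.4% of the Csf1r value in WT and 99.8% in Pth1rΔNLS, and the Spi1 transcript of 2034 bases carried 92.4 and 92.7% of Spi1. The 2 listed Adgre1 transcripts have coding regions of equal length (2793 bases) and differ in the first exon and at the 3′ end; the one of 3238 bases held 79.4% of the gene in WT and 79% in Pth1rΔNLS. The Tyrobp transcript of 564 bases stood at 189, 197 and 194 FPKM in WT and 302, 299 and 252 FPKM in Pth1rΔNLS, and the one of 597 bases at 95.2, 95.8 and 87.6 FPKM in WT and 151, 142 and 169 FPKM in Pth1rΔNLS, so both were higher in every Pth1rΔNLS library. The Trem2 transcript with the longer exon 4 (240 against 185 bases) stood at 141, 61.3 and 83.4 FPKM in WT and 109.6, 86.9 and 97.8 FPKM in Pth1rΔNLS, overlapping. The Trem2 transcript with the shorter exon 4 stood at 9.88, 23.9 and 24.4 FPKM in WT and 19.1, 43.2 and 42.7 FPKM in Pth1rΔNLS, also overlapping, and WT 1 had the highest value of the first and the lowest of the second. Ptprc was carried by a transcript of 29 exons (61.5% in WT, 51.2% in Pth1rΔNLS) and one of 30 exons (37.7 and 44.2%), which has an exon of 72 bases (chromosome 1, 138116954 to 138117025) that the other lacks. The one of 30 exons was the higher in WT 2, Pth1rΔNLS 1 and Pth1rΔNLS 2. Both overlapped between genotypes, the first at 17.0 to 31.2 FPKM in WT and 18.2 to 29 FPKM in Pth1rΔNLS. Short Ptprc transcripts of 702 and 415 bases, low but part of the gene's sum, did not overlap. That of 702 bases was at 0.130, 0.239 and 0 FPKM in WT and 1.03, 1.48 and 1.33 FPKM in Pth1rΔNLS. That of 415 bases was at 0.389, 0.191 and 0 FPKM in WT and 1.01, 0.775 and 0.734 FPKM in Pth1rΔNLS. On the highest transcript of each gene alone, Ptprc differed by -0.034 on the log2 scale (limma adjusted p = 0.954). How reads are divided between transcripts of a gene is an estimate, so these splits are less certain than the sums.

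The ligands and downstream genes of CSF1R did not move together. Csf1, the main ligand, made by stromal cells among others, fell from 245, 216 and 233 FPKM in WT to 169, 186 and 187 FPKM in Pth1rΔNLS (log2 fold change -0.35, limma adjusted p = 0.0246), with no overlap. Il34, the second ligand, was at 4.76 ± 0.292 FPKM in WT, against 5.69 ± 0.135 FPKM in Pth1rΔNLS (SD, n = 3 each; limma adjusted p = 0.166). Of 14 tested genes of this list 4 rose, 1 fell and 9 did not pass, with a median log2 fold change of 0.40. Those that rose included Pik3r5, a regulatory subunit of phosphoinositide 3-kinase (11.8 ± 0.507 to 21.7 ± 1.67 FPKM, limma adjusted p = 0.00168), Inpp5d, the lipid phosphatase SHIP1 (29.2 ± 1.27 to 46 ± 3.66 FPKM, 0.00389) and the docking protein gene Gab2, named although outside the naming rule (7.75 ± 0.688 to 11.002 ± 0.697 FPKM, 0.0242).

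Among 17 tested transcription factor genes of the myeloid lineage 4 rose, 0 fell and 13 did not pass (median log2 fold change 0.32). Irf8, which partners PU.1 on DNA, rose from 15.6 ± 1.43 to 23.8 ± 0.865 FPKM (log2 fold change 0.58, limma adjusted p = 0.00706), and Mitf, a regulator of lysosomal and osteoclast genes, from 9.17 ± 0.451 to 14.2 ± 0.887 FPKM (0.58, adjusted p = 0.00647). Tfec, a relative of Mitf chosen after its values were seen, also rose (0.48, adjusted p = 0.0243). Cebpa, which primes myeloid progenitors, was at 24.5 ± 5.28 and 35.9 ± 6.19 FPKM (adjusted p = 0.115).

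The partners and downstream genes of TYROBP and TREM2 included 22 tested genes, of which 11 rose, 0 fell and 11 did not pass (median log2 fold change 0.41). Syk, the kinase recruited by TYROBP, rose from 17.6, 13.6 and 15.5 FPKM in WT to 25.4, 29.0 and 31.4 FPKM in Pth1rΔNLS (log2 fold change 0.84, limma adjusted p = 0.00611). Gpnmb, a glycoprotein of lipid-laden macrophages, rose from 187 ± 7.97 to 329.8 ± 7.17 FPKM (0.82, adjusted p = 0.000613). Blnk, a linker phosphorylated by SYK, rose from 25.8 ± 0.842 to 41.4 ± 2.72 FPKM (0.66, adjusted p = 0.00229), and Apoe, a lipid carrier that binds TREM2, from 460.2 ± 22.1 to 651 ± 22.6 FPKM (0.50, adjusted p = 0.00535). Hcst, the related adaptor DAP10, was low, at 2.77 ± 1.19 and 3.52 ± 0.414 FPKM (adjusted p = 0.415).

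Around CD14, of 16 tested genes of the Toll-like receptor 4 pathway 3 rose, 1 fell and 12 did not pass (median log2 fold change 0.24). Those that rose were the kinase gene Irak4 (8.51 ± 0.643 to 13.1 ± 0.196 FPKM, limma adjusted p = 0.00674), the inhibitor gene Nfkbia (33.1 ± 2.14 to 43.8 ± 2.08 FPKM, 0.0168) and the receptor gene Tlr2 (16.7 ± 0.689 to 22.0 ± 1.03 FPKM, 0.0179). Lbp, which delivers lipopolysaccharide to CD14 and was chosen after its values were seen, fell from 2.52 ± 0.168 to 1.44 ± 0.149 FPKM (adjusted p = 0.0214). Tlr4 itself differed widely within both genotypes, at 14.2, 2.14 and 14.997 FPKM in WT and 3.21, 18.2 and 3.42 FPKM in Pth1rΔNLS (adjusted p = 0.808), and its co-receptor Ly96 was at 24.95 ± 3.73 and 28.9 ± 4.43 FPKM (0.416).

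Of 13 tested substrates and partners of CD45 6 rose, 0 fell and 7 did not pass (median log2 fold change 0.21), led by the Src-family kinase gene Lyn (53.4 ± 1.31 to 70.2 ± 0.644 FPKM, limma adjusted p = 0.00651), the phosphatase gene Ptpn6 (28.3 ± 2.32 to 41.8 ± 1.94 FPKM, 0.00699) and Lgals3, encoding galectin-3 (243 ± 32.9 to 368 ± 22.6 FPKM, 0.0136). By the ratio test 6 of the list's 13 genes moved less than Csf1r and 0 more, near the shares over all tested genes, 55.2 and 0.941%. Of 20 tested genes of blood cells in general, the class Ptprc belongs to, 14 rose, 0 fell and 6 did not pass, with a median log2 fold change of 0.60. Plek, a platelet and leukocyte kinase substrate, rose from 117 ± 7.45 to 193 ± 6.89 FPKM (limma adjusted p = 0.00146), Nckap1l, a subunit of the actin-regulating WAVE complex, from 52.6 ± 1.31 to 86.3 ± 5.98 FPKM (0.00164) and Dock2, a guanine exchange factor for Rac, from 23.1 ± 0.302 to 35.3 ± 0.958 FPKM (0.00174). Only 1 of the 20 differed from Csf1r in fold, where 56.1% of all tested genes did. It was Arhgap9 (chosen after its values were seen), which rose more, from 6.04 ± 0.475 to 12.5 ± 1.12 FPKM. Not passing does not show that the others moved as Csf1r did.

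Among 12 tested macrophage genes outside the 10 members, of 17 on the list, 8 rose, 0 fell and 4 did not pass, with a median log2 fold change of 0.39. Mertk, the receptor by which macrophages clear dying cells, rose from 23.4 ± 0.840 to 41.0 ± 1.13 FPKM (0.79, limma adjusted p = 0.000807). By the ratio test it was the only 1 of the 12 whose fold differed from that of Csf1r, where 56.1% of all tested genes differed. That does not show that the others moved as Csf1r did. Mpeg1, encoding the pore-forming perforin-2, rose from 283.5 ± 21.6 to 403 ± 19.4 FPKM (0.51, adjusted p = 0.00833), and C1qa, a chain of the first complement component, by 0.53 on the log2 scale (0.00846). Itgam, encoding the integrin CD11b and named after its values were seen, differed widely between libraries, at 38.3, 63.4 and 14.1 FPKM in WT and 42.7, 20.3 and 51.7 FPKM in Pth1rΔNLS (adjusted p = 0.915).

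Of 9 tested lysozyme, LAMP, LAPTM and lysosomal protease genes 4 rose, 0 fell and 5 did not pass (median log2 fold change 0.32). All 4 that rose encode lysosomal proteases, Lgmn (named after its values were seen) among them, and the 5 that did not pass were the relatives of members by family, Lyz1, Lamp1, Lamp2, Laptm4a and Laptm4b, also named after their values were seen except Lyz1. The 3 of smallest p were Ctsd (799 ± 83.4 to 1333 ± 55.0 FPKM, limma adjusted p = 0.00415), Ctsb (919.7 ± 30.04 to 1255 ± 47.9 FPKM, 0.00841) and Ctss (531 ± 9.12 to 664 ± 23.7 FPKM, 0.0183), all encoding cathepsins. Among the 5 that did not pass, Lamp1 differed by 0.32 on the log2 scale (limma adjusted p = 0.0569), as Ctss did (0.32). The side on which Lamp1 falls therefore rests on the threshold. Laptm4b differed by -0.81 (limma adjusted p = 0.0551). Of 8 tested adhesion G protein-coupled receptors, the family of Adgre1, 0 rose, 2 fell and 6 did not pass (median log2 fold change -0.17). Those that fell were Adgrf5 (40.7 ± 3.72 to 19.96 ± 1.16 FPKM, adjusted p = 0.00111) and Adgrl1 (7.55 ± 1.19 to 3.47 ± 0.870 FPKM, 0.0147), and Adgrl4 was at 1.32 ± 0.265 and 0.979 ± 0.120 FPKM (adjusted p = 0.322).

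**Figure D5:**
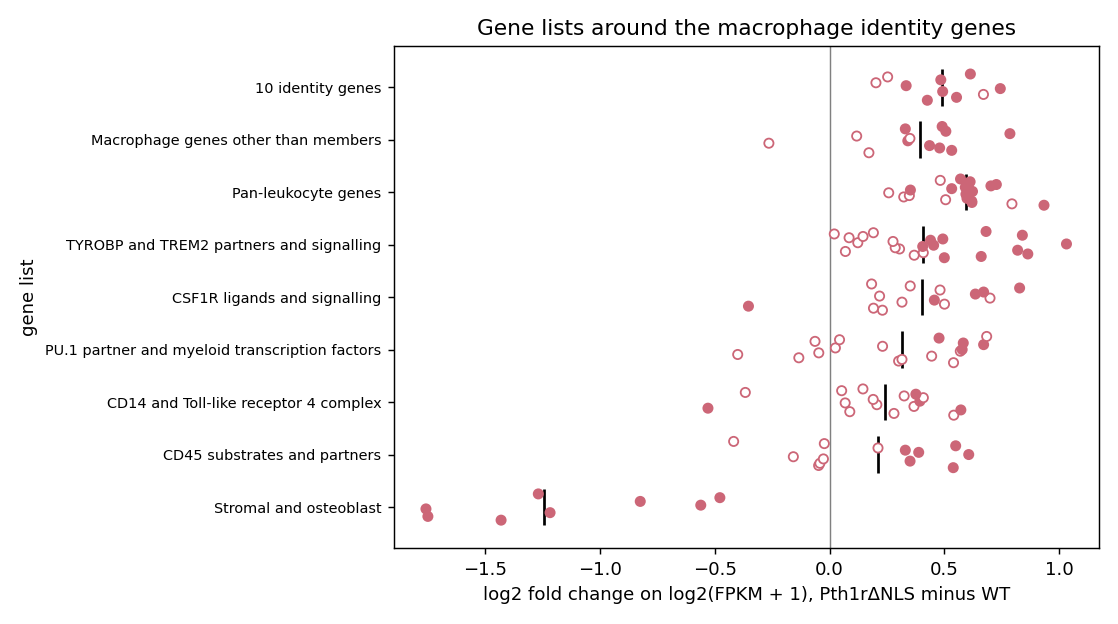
log2 fold change on log2(FPKM + 1), Pth1rΔNLS minus WT, of every tested gene of the named lists, with 1 point per gene (filled where the limma adjusted p was under 0.05) and a bar at each median. The medians of the leukocyte and macrophage lists lie above 0 and that of the stromal list at -1.24.

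By root mean square distance between log2 profiles over the 6 libraries, the genes most like the mean profile of the members, of 7559 non-members with a mean of at least 5 FPKM, were Nrp1 (0.0382), Ncapd2 (0.0392), Aldh9a1 (0.0398), Tmem206 (0.0405) and Glul (0.0457). Csf1r was the member nearest to that mean (0.0487), and Cd68 (0.281) and Trem2 (0.280) were the farthest. Nrp1, the nearest gene of all, stood at 98.9, 93.2 and 92.6 FPKM in WT and 129, 129 and 133 FPKM in Pth1rΔNLS. None of these 5 was on any list here. Close behind were listed genes, named after their values were seen. Plcg2 (rank 6, 0.0457) and Lcp2 (rank 11, 0.0496) were on the TYROBP and TREM2 list and C1qb (rank 9, 0.0491) on the macrophage list. The other genes of ranks 6 to 15 were on none.

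Some markers of other cells rose with the members, while others fell, among them all 8 tested stromal and osteoblast markers. The part of these markers in the members' rise was not tested. The summed FPKM of 8 stromal and osteoblast markers of 9 was 1620.4 to 2133 in WT and 620.1 to 717 in Pth1rΔNLS, and all 8 fell, Cxcl12 (283 ± 25.9 to 82.6 ± 3.17 FPKM), Alpl and Sp7 with the smallest p. Col1a2, the most abundant of them, was at 847 ± 135 FPKM in WT, against 362 ± 30.1 FPKM in Pth1rΔNLS, so the labelled cell type was present in both genotypes. Of 5 megakaryocyte and platelet markers 3 were listed, summing to 314 to 422 FPKM in WT and 471 to 564 FPKM in Pth1rΔNLS. That sum was nearly all Pf4, a chemokine gene of platelets and some macrophages (361 ± 54.8 to 511 ± 46.1 FPKM, limma adjusted p = 0.0401). Ppbp, another platelet chemokine gene, rose from 0.695 to 2.24 FPKM in the group means (limma adjusted p = 0.00923), and Gp1bb, a platelet surface receptor subunit too low to test, was at 0.972 FPKM in WT, against 0.494 FPKM in Pth1rΔNLS. Of 10 neutrophil markers 2 were listed, S100a8 and Camp, summing to 0.374 to 1.56 FPKM per library, and of 6 T cell markers 1, Cd4, at 2.47 ± 0.343 and 2.69 ± 0.524 FPKM. Of 6 dendritic cell markers 2 were listed, led by Itgax, which rose from 1.704 ± 0.157 to 2.96 ± 0.152 FPKM (limma adjusted p = 0.0164). Of 8 osteoclast markers 3 were listed, and the 2 high enough to test went apart. Atp6v0d2 rose from 10.2 ± 2.15 to 25.9 ± 3.87 FPKM (limma adjusted p = 0.0043) and Ctsk fell from 66.5 ± 5.39 to 31.6 ± 1.76 FPKM (0.000725). Of 5 mast cell and basophil markers 1 was listed, Mcpt8, which fell from 80.0 ± 10.6 to 39.7 ± 3.82 FPKM (limma adjusted p = 0.00334), and 5 of 6 endothelial markers summed to 11.8 to 14.5 FPKM in WT and 7.71 to 10.02 FPKM in Pth1rΔNLS, led by Emcn in WT (4.28 ± 1.18 FPKM) and Cdh5 in Pth1rΔNLS (2.30 ± 0.165 FPKM). The 6 B cell and 7 erythroid markers were not analysed here.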

How the data were processed

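Values for 23351 transcripts in 6 libraries were deposited, with no unit in the header; no value column was left unused. The deposited values were taken as FPKM, because value times transcript length summed to 75 to 78.1% of the FPKM total in every library, varying by 1.49%, while plain sums varied by 3.46%. Per the submitters' processing notes the authors used HISAT2, StringTie and build mm10; the sources used here give no versions or settings, nor whether strand was used. Whole-read steps were not found in the low values (the best step put 23.5 to 25.1% of values within 0.1 of whole reads, where chance gives 20%), so depth is unknown.

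Transcripts were matched to GENCODE M21 by identifier without version (23300 named) and summed by gene; identifiers sharing a symbol (7 symbols) were not merged. The test was limma 3.58.1 under R 4.3.3 (lmFit, then eBayes with trend, and no covariate) on log2(FPKM + 1), for genes averaging at least 1 FPKM, and for ratios to a member on log2(FPKM), for genes above 0 in every library. That pseudocount understates the change of low genes. Tests were two-sided with Benjamini-Hochberg adjustment over all genes tested. Scripts were tested on simulated data. Python 3.11.15, pandas 2.3.3, numpy 2.4.6 and matplotlib 3.10.9 were also used.

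The members and lists were chosen with earlier results of these data known. Named genes are the members, the 3 of smallest p in each list, 9 partners or relatives of members (Csf1, Il34, Irf8, Cebpa, Hcst, Syk, Tlr4, Ly96, Lyz1), the 5 most alike genes and the most abundant marker of each other cell type; others are marked as chosen after their values were seen. 1 gene that this rule names is not reported here. The alternatives tried were filters, pseudocounts, scalings, the leading transcript, other variance settings, left-out libraries, a replicate block and other reference members.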

Additional observations from a re-analysis of the deposited data

How the results depend on the processing

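Over 18 alternatives, Csf1r, Tyrobp and Laptm5 passed in every one, and Ptprc and Trem2 in none; of the members' values 155 kept direction and side of the threshold, 21 lost the call, 3 gained it (all Cd68) and 1 reversed, Ptprc on the leading transcript (log2 fold change -0.034). Leaving out 1 library at a time gave 4 to 7 members and 1068 to 1695 genes past the test, 0 to 2 members whose fold differed from that of Csf1r, and a geometric mean fold of 1.38 to 1.41. Of all tested genes, 4738 to 5528 differed from Csf1r in these fits. Without both WT 1 and Pth1rΔNLS 1 there were 617 genes, 4 members and 0 members differing from Csf1r, where 4254 of all tested genes differed. The geometric mean fold was 1.43 without mitochondrially encoded transcripts and 1.36 on the leading transcript. The members differing from the reference numbered 2 with array weights, 3 against Tyrobp, 4 against Laptm5 and 2 against Lyz2, in place of 1; of all tested genes 59.7, 65.2, 74.9 and 37.2% differed in those fits. On the highest transcript the 1 member was Laptm5 and with the mitochondrial covariate Lyz2, in place of Ptprc. In those fits 4844 and 5783 of all tested genes differed from Csf1r. With the replicate block, 792 genes and 3 members passed and 0 members differed from Csf1r, where 5024 of all tested genes did. Same-numbered libraries did not deviate together (correlations -0.19, -0.07 and 0.07), so the numbers are not taken as pairs. The causes were not tested. Left-out libraries and the block also bring fewer samples or degrees of freedom. Depth is unknown, so no counting interval limits the values.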
